A study of Mus musculus with 14 samples.

Results

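The genes described here encode 10 receptor chains through which growth factors act on blood cells: the receptor tyrosine kinases Kit, Flt3 and Csf1r, the G-CSF (granulocyte colony-stimulating factor) receptor Csf3r, the chains of the GM-CSF and interleukin-3 receptors Csf2ra, Il3ra, Csf2rb and Csf2rb2, and the interleukin-6 receptor chain Il6ra with its signalling partner Il6st. They were chosen by gene symbol, and all 10 had a row among the 13406 genes of the doxycycline table and among the 14563 genes of the transduction table. RNA sequencing covered 14 libraries of primary acute myeloid leukaemia cells of the mouse (strain C57/BL6). The leukaemias had been raised in irradiated congenic mice from foetal liver cells carrying 2 retroviral vectors, a Tet-Off vector for the fusion oncogene MLL-AF9 with a dRED reporter, and a vector for NRASG12D and the Tet-Off transcriptional activator. All 4 groups carried both vectors, and the cells came from spleens of terminally sick mice. The DOX group (n = 4) was cultured with doxycycline for 4 days, which turns MLL-AF9 expression off, and the UT group (n = 4) was left untreated. The Id2-GFP group (n = 3) received a retrovirus for Id2, an inhibitor of E-protein transcription factors, and the control-GFP group (n = 3) a control-GFP retrovirus, and both were sorted for GFP 2 days after transduction. No library had doxycycline without the loss of MLL-AF9, so effects of the drug and of the oncogene's loss cannot be told apart. Whether the libraries of a group stem from different animals is not stated in the labels, and p-values therefore measure the spread between these libraries, which may be technical.

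Growth factor receptors of this kind sit on the surface of blood progenitors and their progeny. Kit, Flt3 and Csf1r carry a kinase in the same chain and are activated by stem cell factor (Kit), FLT3 ligand (Flt3), and colony-stimulating factor 1 or interleukin-34 (Csf1r). The other chains have no kinase of their own and signal through bound JAK kinases: Csf2ra and Il3ra bind their ligand and pair with the shared beta chain Csf2rb, Csf2rb2 is a mouse paralog of that chain that serves the interleukin-3 receptor, and Il6ra pairs with Il6st, also called gp130. Kit and Flt3 are best known from stem cells and progenitors, Csf1r from monocytes and macrophages, and Csf3r from neutrophils and their precursors.

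Reads summed over the genes with a row came to 17922644 to 25959766 per DOX or UT library and 14051150 to 14948487 per transduced library. Levels are CPM, the reads of a gene per scaled library size, or their log2, means carry the SD, and changes are log2 differences with their SE. Adjusted p-values come from limma's test, with Benjamini-Hochberg adjustment over all genes of a table. Both partner genes of the fusion fell with doxycycline, to 128 ± 13.2 CPM in DOX libraries against 3901 ± 1931 CPM in UT libraries for Kmt2a (listed as Mll1) and to 5.85 ± 0.665 CPM against 489 ± 255 CPM for Mllt3. Nras, at 856 ± 23.7 CPM in DOX libraries and 722 ± 107 CPM in UT libraries, passed with an adjusted p of 0.0409 that was lost under most alternatives. Id2 averaged 1283 ± 340 CPM in Id2-GFP libraries and 36.1 ± 13.6 CPM in control-GFP libraries. The control-GFP library of replicate number 3 stood apart, with correlations of 0.913 to 0.954 to the others of its table, so the receptors' differences in that comparison are given with and without it. Leaving it out kept its Id2-GFP partner in a fit without a block, so differences between pairs enter those values. Of marker genes for B cells and for T and NK cells, 7 of 8 had no row in either table, and of those for erythroid cells 8 of 9 had none in the doxycycline table and 7 of 9 in the other.

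After doxycycline the receptors moved apart: Kit and Flt3 fell, to levels 13.2-fold and 13.3-fold lower than untreated, and 7 of the other 8 chains rose, Csf1r and Csf3r most. Of the 10 receptors, 9 passed the test (adjusted p under 0.05), as did 65.1% of all genes tested. The 7 that rose stand beside 31.3% of all genes called higher, and the 2 that fell beside 33.8% called lower. With the pair label as a block the same 9 passed, beside 69.6% of all genes. In 9 receptors the DOX and UT values did not overlap, which held for 60% of all genes. The 7 were higher and the 2 lower in each of 4 pairs, as were 35.8% and 38.9% of all genes. A called rise of at least 2-fold was found for 5 receptors, against 10.1% of all genes, and a called fall of that size for 2, against 5.18%. The median change of the 10 was 1.02 against −0.029 over all genes, and their median absolute change 1.44 against 0.37. The counts of called receptors (7 higher, 2 lower) were the same with 3 other scalings of the libraries, although scaling by library totals put the median of all genes at −0.27 and split the calls into 2702 higher and 6912 lower, so that 28.1% of calls were higher, in place of 48.1% with the deposited scaling (4198 higher and 4535 lower). In bulk RNA, fewer cells of a type and less RNA per cell cannot be told apart.

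**Figure D1:**
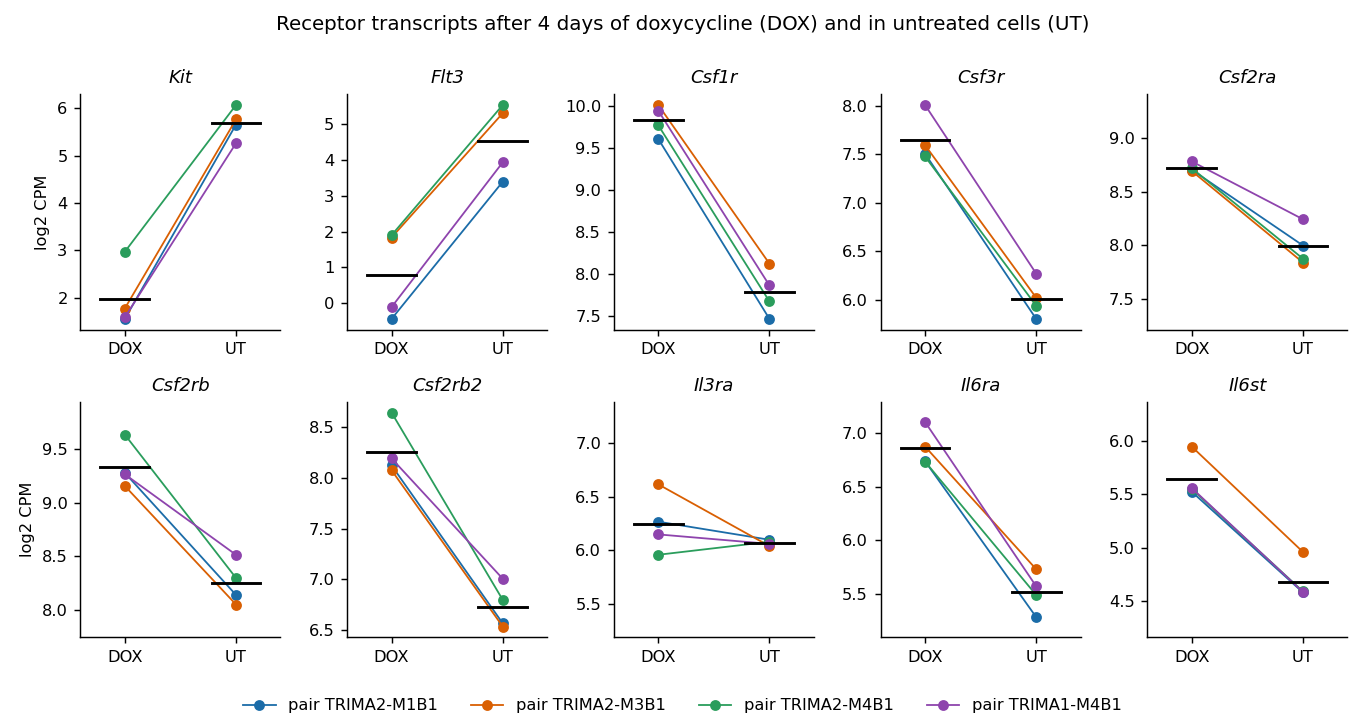
Log2 CPM of the 10 receptors in each DOX library (left in each panel) and UT library (right), 4 libraries per group. Lines join libraries with the same pair label in their titles, black bars are group means, and each panel has its own axis range. Kit and Flt3 are lower in DOX in each of the 4 pairs, Il3ra overlaps between the groups, and the other 7 are higher in DOX in each pair.

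Kit, the receptor for stem cell factor (chr5:75574916-75656722, + strand, GRCm38), had 2.91, 3.39, 7.81 and 2.98 CPM in the DOX libraries of pairs TRIMA2-M1B1, TRIMA2-M3B1, TRIMA2-M4B1 and TRIMA1-M4B1, against 50.5, 54.4, 67.3 and 38.4 CPM in the UT libraries of the same pairs. The groups did not overlap, and the DOX library of pair TRIMA2-M4B1 was the highest of its group, as was the UT library of that pair. Kit fell by 3.72 ± 0.31 on the log2 scale, a 13.2-fold lower level (adjusted p = 5.7e-06, limma), and only 29 of the 13406 genes had a more negative change. Within pairs the change ran from −4.11 to −3.10. The DOX values rest on 57 to 131 reads and the UT values on 826 to 1336 reads.

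Flt3, the receptor for FLT3 ligand (chr5:147330741-147400489, − strand), had 0.714, 3.54, 3.70 and 0.908 CPM in the DOX libraries, in the same order of pairs, against 10.5, 39.3, 46.1 and 15.2 CPM in the UT libraries. Pairs TRIMA2-M3B1 and TRIMA2-M4B1 were high in both groups and the other pairs low in both, so that the level in UT libraries differed over 4-fold between pairs while the groups still did not overlap. Flt3 fell by 3.74 ± 0.65 (adjusted p = 0.00074, limma), with changes within pairs of −3.82, −3.46, −3.63 and −4.03. The 95% interval of the change was −4.00 to −3.47 with the pair as a block, and −5.21 to −2.26 without it. The DOX values rest on 14 to 72 reads, so the deposited offset of 0.5 reads understates this fall slightly more than the others.

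The stretches upstream of Kit and Flt3 are shown because these receptors fell together. Both come from RefSeq promoter windows (GRCm38.p6, from 250 bases before the start of the gene to 50 after it, shown as far as no annotated exon was reached), written 5′ to 3′ on the strand of the gene, at chr5:75574737-75574915 for Kit and chr5:147400490-147400739 for Flt3. Capitals mark AGGAAG, a core of sites for PU.1 and other ETS factors, on either strand.
Kit: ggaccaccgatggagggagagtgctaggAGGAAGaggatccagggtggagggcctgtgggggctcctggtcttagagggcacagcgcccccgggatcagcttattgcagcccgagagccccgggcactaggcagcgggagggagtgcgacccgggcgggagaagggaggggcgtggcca
Flt3: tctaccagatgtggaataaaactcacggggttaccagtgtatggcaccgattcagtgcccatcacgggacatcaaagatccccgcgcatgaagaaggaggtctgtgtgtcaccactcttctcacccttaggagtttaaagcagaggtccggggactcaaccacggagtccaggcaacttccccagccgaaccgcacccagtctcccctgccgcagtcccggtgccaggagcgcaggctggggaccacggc
The Kit stretch held 1 such match and the Flt3 stretch none.

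Csf1r, the colony-stimulating factor 1 receptor (chr18:61100598-61132149, + strand), is also a receptor tyrosine kinase but moved the other way. It had 779, 1032, 873 and 984 CPM in DOX libraries, against 176, 278, 203 and 232 CPM in UT libraries. Every DOX library was above every UT library, and the order of the pairs was the same in both groups. Csf1r rose by 2.06 ± 0.14, or 4.16-fold (adjusted p = 1.8e-06, limma), and its changes within pairs lay between 1.89 and 2.15. Its exons overlap those of Hmgxb3 on the opposite strand by 873 bases, and no source used here states that counting used strand.

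Csf3r, through which G-CSF acts on neutrophil precursors (chr4:126024550-126044440, + strand), had 182, 193, 178 and 257 CPM in DOX libraries, against 55.9, 65.0, 61.4 and 77.2 CPM in UT libraries. Pair TRIMA1-M4B1 was the highest in both groups, and the groups did not overlap. Csf3r rose by 1.64 ± 0.13, or 3.11-fold (adjusted p = 4.7e-06, limma), and by 1.54 to 1.74 within pairs.

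Markers of mature cells moved with Csf1r and Csf3r. For comparison, 31.3% of all genes were called higher and 33.8% lower. Of 12 monocyte and macrophage markers, 10 rose and none fell, and their summed level was 26776 to 38614 CPM in DOX libraries against 3463 to 6406 CPM in UT libraries. Of 12 neutrophil markers, 11 rose and Elane, a granule protease, fell. Their summed levels were 5150 to 11574 CPM in DOX libraries and 815 to 2381 CPM in UT libraries. Of 12 stem and progenitor markers, 10 were measured, of which 1 rose and 6 fell (summed 249.8 to 448 CPM in DOX libraries and 815 to 897 CPM in UT libraries). Mast cells also carry Kit, but 7 of 10 genes listed as mast cell markers had no row. Of the 3 measured, Cpa3 and Mcpt8 fell (list sum 107 to 188 CPM in DOX libraries and 137 to 247 CPM in UT libraries). Mcpt8 is better known from basophils, so these values say little about mast cells. All 24 monocyte, macrophage and neutrophil markers had a row, and their lowest group mean was 2.52 CPM in DOX libraries and 0.324 CPM in UT libraries. A marker low in UT libraries could have a row through its DOX level alone, so the counts of 10 and 11 may be selected for rises. Mrc1, Ly6g and Retnlg had no row among the genes of the transduction table. The part of these markers in the changes of the receptors was not tested.

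The chains of the GM-CSF and interleukin-3 receptors rose to different degrees. Csf2ra, the ligand-binding chain for GM-CSF (chr19:61223957-61228429, − strand), had 417, 414, 421 and 440.2 CPM in DOX libraries, against 255, 229, 234 and 303 CPM in UT libraries. The DOX libraries lay close together, and the lowest of them was above the highest UT library. Csf2ra rose by 0.74 ± 0.08 (adjusted p = 4.1e-05, limma). Csf2rb, the shared beta chain (chr15:78325752-78353847, + strand), had 621, 570.4, 795 and 615 CPM in DOX libraries, against 281, 265, 314 and 365 CPM in UT libraries. The groups did not overlap, and the change of 1.09 ± 0.12 (adjusted p = 4.3e-05, limma) was 0.75 in pair TRIMA1-M4B1 and 1.11 to 1.34 in the other pairs.

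Csf2rb2, the mouse paralog of the beta chain (chr15:78282507-78305721, − strand), had 279, 269.7, 399.9 and 292 CPM in DOX libraries, against 94.6, 92.6, 111 and 128 CPM in UT libraries. Pair TRIMA2-M4B1 was the highest of the DOX libraries but not of the UT libraries. Csf2rb2 rose by 1.53 ± 0.14, or 2.89-fold, without overlap of the groups (adjusted p = 1.1e-05, limma).

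Il3ra, the ligand-binding chain for interleukin-3 (chr14:14346275-14356011, + strand), was the receptor that did not pass the test. It had 77.0, 98.1, 62.1 and 70.9 CPM in DOX libraries, against 68.5, 65.7, 67.6 and 66.7 CPM in UT libraries. The UT libraries were nearly equal, and the DOX libraries lay on both sides of them. The difference of 0.18 (95% interval −0.084 to 0.44) had an adjusted p of 0.20 (limma). It was −0.062 with library totals as the scaling, and 0.27 with an adjusted p of 0.041 without the DOX library of pair TRIMA2-M4B1, the only library whose removal gave a call.

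The beta chain and its paralog are near copies, so how reads were divided between them bears on both values. Their coding sequences (transcripts Csf2rb-206 and Csf2rb2-201 of GENCODE M21) agreed at 2503 of 2628 aligned positions, or 95.2%. Of all 50-base windows of the Csf2rb transcript, 18.4% also occur in the Csf2rb2 transcript, and of 100-base windows 6.96%. The read length is not given in the sources used here. Stretches of 60 coding bases are shown from the most alike and the least alike window, on GRCm38 and on the strand of each gene, with differing bases in capitals. The most alike stretch lies at chr15:78338837-78338896 in Csf2rb and at chr15:78294435-78294494 in Csf2rb2, and the least alike one at chr15:78338897-78338956 in Csf2rb and chr15:78294375-78294434 in Csf2rb2.
Csf2rb, most alike: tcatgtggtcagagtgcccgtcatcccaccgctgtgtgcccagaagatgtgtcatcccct
Csf2rb2, most alike: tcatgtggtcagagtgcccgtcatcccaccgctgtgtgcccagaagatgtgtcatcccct
Csf2rb, least alike: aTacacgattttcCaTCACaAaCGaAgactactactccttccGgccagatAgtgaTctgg
Csf2rb2, least alike: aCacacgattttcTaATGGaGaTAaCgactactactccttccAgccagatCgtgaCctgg
The first pair of stretches is identical over its 60 bases, and the other differs at 13 of them.

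Ratios of chains within a library do not depend on how libraries are scaled. The ratio of Csf2rb to Csf2rb2 reads was 2.23, 2.11, 1.99 and 2.104 in DOX libraries, against 2.97, 2.86, 2.83 and 2.84 in UT libraries. It was lower in DOX in each pair, without overlap (log2 difference −0.45 ± 0.04; exact two-sided permutation p = 0.0286, the smallest that 4 against 4 libraries can give). The ratio of Csf2ra to Csf2rb averaged 0.660 ± 0.0904 in DOX libraries and 0.837 ± 0.0683 in UT libraries (SD, n = 4 each), again without overlap (−0.35 ± 0.12, exact permutation p = 0.0286). That of Il3ra to Csf2rb averaged 0.122 ± 0.0386 in DOX libraries and 0.222 ± 0.0302 in UT libraries, also without overlap (−0.91 ± 0.25, exact permutation p = 0.0286). Adjusted over the 8 ratio tests of both tables, these 3 p-values came to 0.0762 and did not pass 0.05. Leaving out the DOX library of pair TRIMA2-M4B1 changed the Csf2ra to Csf2rb difference to −0.25.

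**Figure D2:**
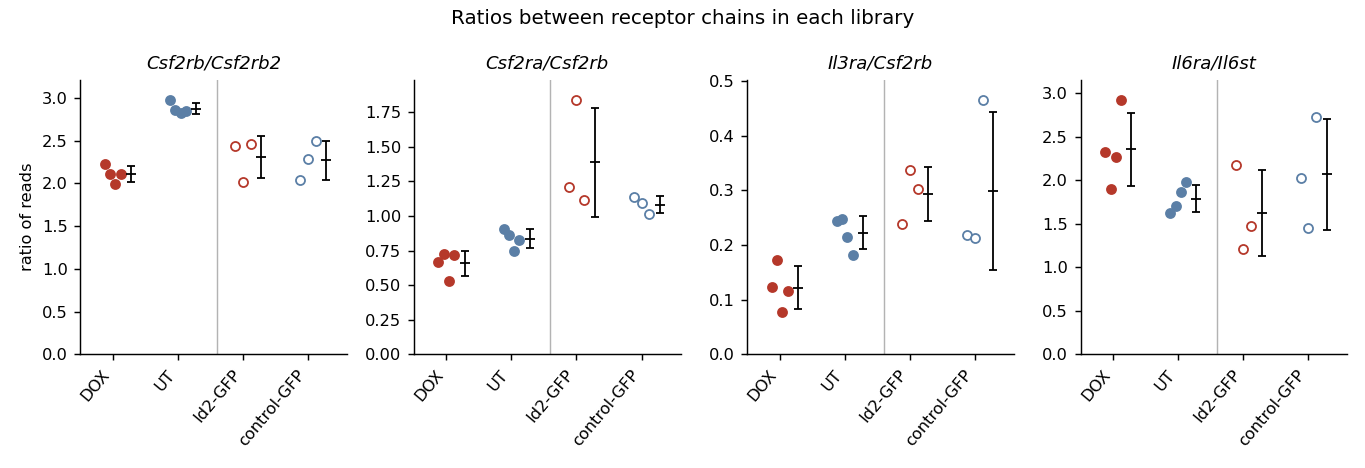
Ratios of reads between receptor chains in each library, with DOX left of UT and Id2-GFP left of control-GFP, 4, 4, 3 and 3 libraries. Points are libraries, bars to their right are means ± SD, and axes start at 0. The first 3 ratios do not overlap between DOX and UT, and all 4 overlap between Id2-GFP and control-GFP.

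Il6ra, the interleukin-6 binding chain (chr3:89864059-89913196, − strand), had 107, 117, 106 and 138 CPM in DOX libraries, against 38.8, 53.0, 44.8 and 47.4 CPM in UT libraries. Il6st, the signalling chain shared by the interleukin-6 family (chr13:112464070-112510086, + strand), had 46.0, 61.6, 46.8 and 47.1 CPM in DOX libraries, against 23.9, 31.1, 24.1 and 24.0 CPM in UT libraries. Neither chain overlapped between the groups, and for Il6st pair TRIMA2-M3B1 stood above the other 3 pairs in both groups. Il6ra rose by 1.35 ± 0.11 (adjusted p = 4.7e-06, limma). The rise of Il6st was 0.96 ± 0.12 (adjusted p = 6.8e-05, limma) and spanned only 0.94 to 0.99 within pairs. The ratio of Il6ra to Il6st was 2.36 ± 0.421 in DOX libraries and 1.79 ± 0.158 in UT libraries, with overlap (0.38 ± 0.14, exact two-sided permutation p = 0.0571). Exons of Il6ra overlap 242 bases of Gm42809 on the opposite strand.

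The upstream stretches of Csf3r and Il6ra are shown beside those of Kit and Flt3 as receptors that rose, read from the same RefSeq windows (GRCm38.p6) at chr4:126024409-126024549 and chr3:89913197-89913446, with AGGAAG in capitals.
Csf3r: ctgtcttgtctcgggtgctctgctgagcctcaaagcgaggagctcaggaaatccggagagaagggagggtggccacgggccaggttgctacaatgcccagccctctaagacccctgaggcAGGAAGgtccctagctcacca
Il6ra: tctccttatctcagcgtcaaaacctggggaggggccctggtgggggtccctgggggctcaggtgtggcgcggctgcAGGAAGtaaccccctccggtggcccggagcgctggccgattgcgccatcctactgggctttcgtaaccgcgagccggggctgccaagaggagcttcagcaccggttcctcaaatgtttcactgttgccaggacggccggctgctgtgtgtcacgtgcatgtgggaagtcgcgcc
Of the 10 receptors, 8 had a promoter window of 300 bases, and 6 of these held AGGAAG on either strand (Kit, Csf2ra, Csf2rb2, Csf3r, Il3ra and Il6ra), as did 35.4% of all 32851 windows of that length. TTGCNNAA, a C/EBP core, was in the Il3ra window alone, against 10.8% of all windows, and TGTGGT, a RUNX core, was in none of the 8, against 16.8%. Both strands were searched, and no match overlapped another motif. These matches are descriptions of letters and not of bound sites.

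Levels of different receptors were compared per kb of exon of their protein-coding transcripts. In DOX libraries the order was Csf2ra (227 ± 6.39 CPM per kb), Csf1r (184 ± 22.8), Csf2rb (124 ± 19.0), Csf2rb2 (65.4 ± 12.8), Csf3r (57.8 ± 10.6), Il3ra (30.2 ± 5.99), Il6ra (13.5 ± 1.69), Il6st (4.55 ± 0.678), Kit (0.814 ± 0.451) and Flt3 (0.606 ± 0.444). Only Csf2rb2 and Csf3r, and Kit and Flt3, overlapped with their neighbour in that order. In UT libraries the order was Csf2ra (137 ± 18.1), Csf2rb (58.6 ± 8.46), Csf1r (44.6 ± 8.73), Il3ra (26.3 ± 0.465), Csf2rb2 (22.5 ± 3.52), Csf3r (18.5 ± 2.58), Kit (10.02 ± 2.27), Flt3 (7.59 ± 4.81), Il6ra (5.32 ± 0.679) and Il6st (2.33 ± 0.321). There, Csf2rb and Csf1r overlapped, as did Il3ra with Csf2rb2, Csf2rb2 with Csf3r, Kit with Flt3, and Flt3 with Il6ra. Kit and Flt3 thus stood above both interleukin-6 receptor chains by mean in UT libraries and below both in DOX libraries. With exons of all transcripts as the length, Csf1r came first in DOX libraries (159 ± 19.7 against 147 ± 4.14 for Csf2ra, with overlap), and Il6ra passed above Flt3 in UT libraries (5.32 ± 0.679 against 4.50 ± 2.85).

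**Figure D3:**
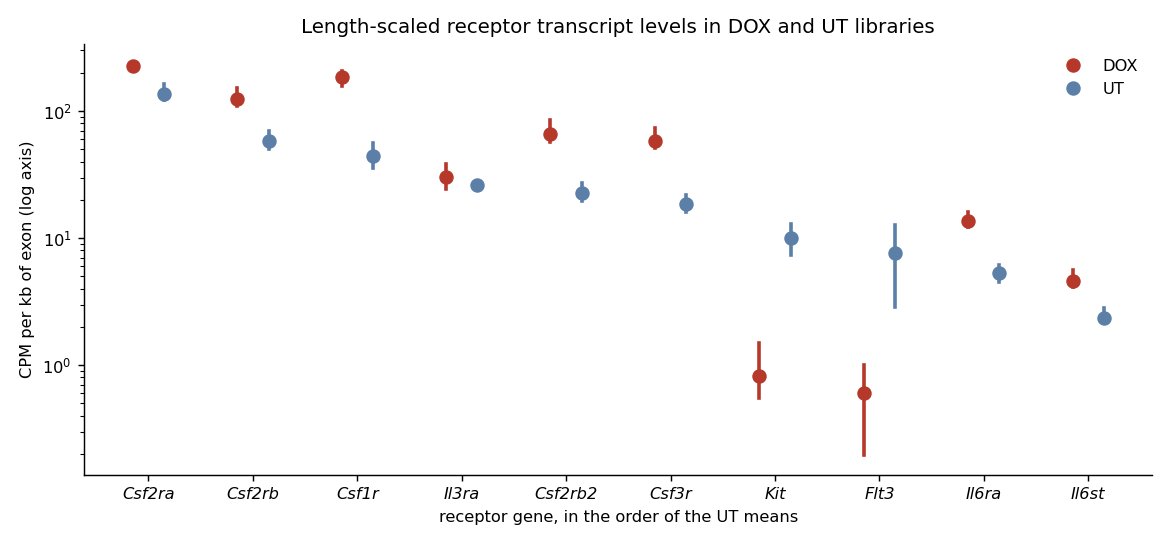
CPM per kb of exon (log axis) of the 10 receptors in DOX (left in each column) and UT (right) libraries, in the order of the UT means. Points are means and lines run from the lowest to the highest of 4 libraries. The means of Kit and Flt3 are below 1 in DOX and above those of Il6ra and Il6st in UT.

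Between libraries of the same group, the receptors spread more than the middle gene. In DOX libraries 9 of 10 had an SD of log2 CPM above the median gene's 0.12, and their own median was 0.23. In UT libraries this held for 9 of 10 as well, with medians of 0.20 for the receptors and 0.11 for all genes. Flt3 had the largest SD, 1.24 in DOX libraries and 1.04 in UT libraries, and only 0.761% and 1.13% of all genes had a larger one. The exceptions were Csf2ra in DOX libraries, with an SD of 0.040, and Il3ra in UT libraries, with an SD of 0.026.

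Genes whose pattern over the 8 libraries was most like each of 4 receptors were listed by Pearson's r, which over 4 DOX and 4 UT libraries contains the difference between the groups. For Kit these included Zfp940 and Hdgf (r of 0.997 and 0.994), and 1226 of the 11634 genes compared had an r over 0.95. For Flt3 they were Kcnk12, Pabpn1 and Gpr171 (0.987 to 0.992), with only 200 genes over 0.95. Those for Csf1r were Tgfbi, Tbc1d9 and Id2 (0.998 to 0.999), with 1229 genes over 0.95. Those for Csf3r were Msr1, Ubl3 and Sidt2 (0.997 to 0.998), with 1448 genes over 0.95.

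Of 16 ligands of these receptors, 6 had a row in the doxycycline table, and all 6 rose (Flt3l, Csf1, Il27, Lif, Osm and Clcf1; median change 1.57). Over all genes, 31.3% were called higher. A ligand low in UT libraries could have a row through its DOX level alone, so the count of 6 may be selected for rises. Lif had only 13 to 27 reads in UT libraries. Csf1, a ligand of Csf1r, averaged 100.1 ± 20.2 CPM in DOX libraries and 28.5 ± 5.80 CPM in UT libraries, a rise of 1.81 ± 0.16 (adjusted p = 9.8e-06, limma). Lif, which signals through Il6st, averaged 6.38 ± 1.12 CPM in DOX libraries and 0.826 ± 0.206 CPM in UT libraries. Osm, another user of Il6st, rose by 1.32 ± 0.15 to 26.9 ± 4.53 CPM in DOX libraries, against 10.7 ± 1.70 CPM in UT libraries, and Il27, whose receptor also contains Il6st, rose by 2.30 ± 0.18. Scaled by library totals, 4 of the 6 passed, all as rises, beside 2702 of all 13406 genes called higher. Kitl, Csf2, Csf3, Il3, Il6 and Il34 were among the 10 ligands with no row in either table.

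Of 29 other cytokine receptor chains, 19 were measured, of which 9 rose, 3 fell and 7 did not pass (median change 0.59). Over all genes 65.1% passed, 31.3% higher and 33.8% lower, so the share of these chains that passed was near that of all genes. Il7r, the interleukin-7 receptor, and Il13ra1, a chain for interleukin-13, averaged 99.1 ± 12.4 and 42.6 ± 5.05 CPM in DOX libraries and 11.8 ± 2.64 and 5.57 ± 1.18 CPM in UT libraries. The interferon receptor chains Ifngr2 and Ifnar1 rose by 1.26 ± 0.05 and 0.83 ± 0.04. With library totals as the scaling, 7 rose and 6 fell, beside 2702 of all 13406 genes called higher and 6912 called lower. The counts of this list thus shifted with the scaling, as did those of all genes. With that scaling the list's median was 0.35, against −0.27 over all genes. Without the DOX library of pair TRIMA2-M4B1, 1 chain fell.

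Other receptor tyrosine kinases did not move as a group. Of 24, 12 were measured, 4 rose, 4 fell and 4 did not pass (median change −0.058). The share that passed was near the 65.1% of all genes. Axl and Fgfr1, receptors for GAS6 and for fibroblast growth factors, rose by 2.51 ± 0.29 and 3.38 ± 0.46, and Insr, the insulin receptor, by 0.63 ± 0.07. Fgfr1 had 4.72 to 14.0 CPM in DOX libraries and at most 0.930 CPM (6 to 20 reads) in UT libraries. It thus passed 1 CPM only in the group where it is high, which makes its call no independent support for a rise. Pdgfrb, a receptor for platelet-derived growth factor in the same kinase class as Kit, Flt3 and Csf1r, fell by 1.75 ± 0.17 to 16.7 ± 3.70 CPM in DOX libraries, against 56.1 ± 10.1 CPM in UT libraries. Pdgfrb also marks stromal cells, but of 8 markers of stroma and endothelium 6 had no row, among them Col1a1, Col1a2, Col3a1 and Dcn. The 2 with a row were Pdgfrb itself and Pecam1, and both fell. The part of stromal cells in this change was not tested.

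Among 33 measured kinases and adaptors of receptor signalling, 21 rose and 6 fell (median change 0.28), beside 31.3% and 33.8% of all genes. Fgr, a Src-family kinase, averaged 167 ± 32.7 CPM in DOX libraries and 14.0 ± 2.71 CPM in UT libraries. Pik3r5, a regulatory subunit of phosphoinositide 3-kinase, and Tyrobp, an adaptor of myeloid receptors, rose by 1.75 ± 0.07 and 1.26 ± 0.08. Of 27 measured negative regulators and genes of receptor turnover, 16 rose and 3 fell (median change 0.27), beside the same shares of all genes. The phosphatases Ptprc, Ptprj and Ptpn1 rose by 1.01 ± 0.07, 1.64 ± 0.13 and 0.97 ± 0.08, and the docking protein Dok1 by 0.70 ± 0.05. Scaled by library totals, the medians of these lists came to 0.037 and 0.029, against −0.27 over all genes. The calls were 13 higher and 10 lower, and 12 higher and 8 lower, beside 2702 higher and 6912 lower among all 13406 genes. The general rise of these lists thus depended on the scaling, while all genes shifted by a like amount.

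The other comparison asked what over-expressed Id2 did to the same receptors while MLL-AF9 stayed on. No receptor passed the test, with or without the replicate number as a block. Among all 14563 genes, limma called 2 without the block (0.0137%) and 35 with it (0.24%), and an unadjusted p under 0.05 was found for 357 genes (2.45%) and 914 genes (6.28%). The largest differences among the receptors were those of Kit and Csf1r, lower in Id2-GFP in each of 3 pairs, and of Il6st and Il6ra, higher in each of 3 pairs. With Flt3 and Csf2rb, both lower, 6 of the 10 had 1 direction in every pair, against 27.4% of all genes (14.6% lower and 12.8% higher). Some of these changes were near 0, at −0.0092 for Flt3 and −0.015 for Csf2rb in pair 3, and 0.030 for Il6st in pair 1.

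**Figure D4:**
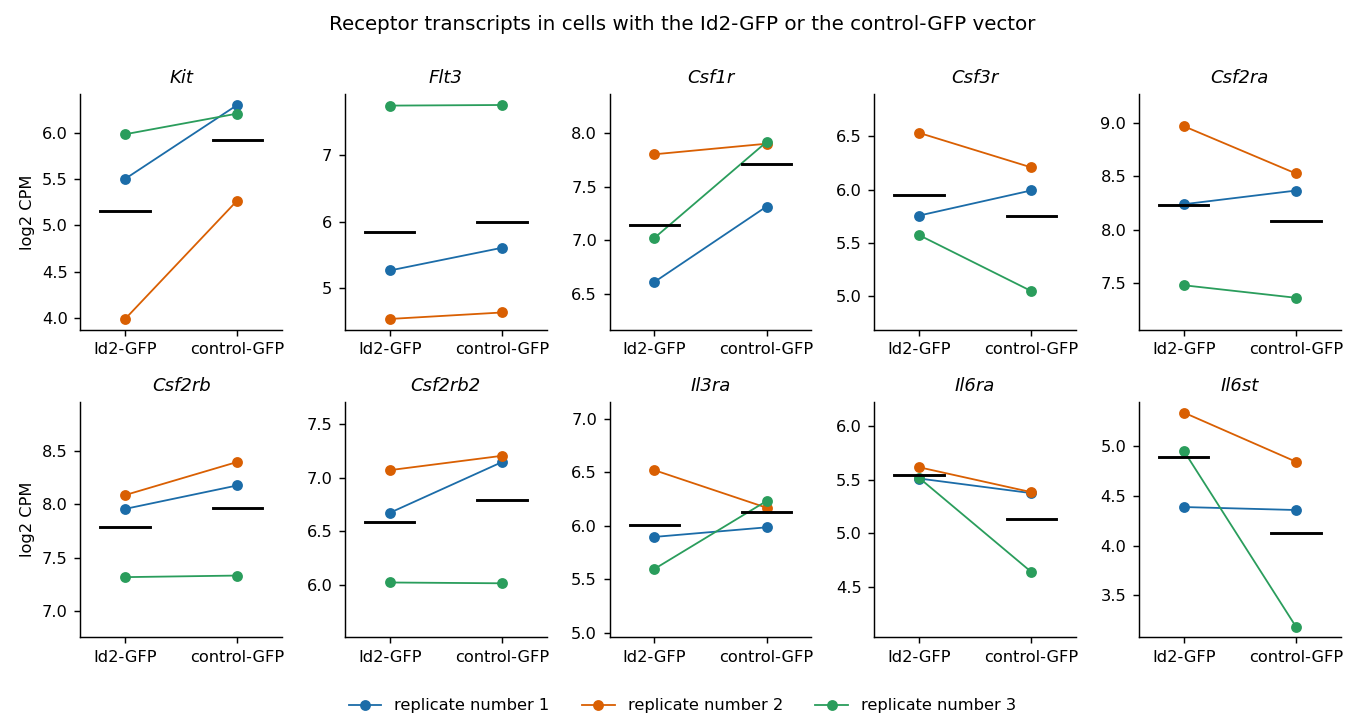
Log2 CPM of the 10 receptors in each Id2-GFP library (left in each panel) and control-GFP library (right), 3 libraries per group. Lines join libraries with the same replicate number, black bars are group means, and each panel has its own axis range. Flt3 differs by replicate number far more than by vector, and in Il6st and Il6ra the control-GFP library of replicate number 3 lies lowest.

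Kit had 45.3, 15.9 and 63.2 CPM in the Id2-GFP libraries of replicate numbers 1, 2 and 3, against 78.6, 38.5 and 73.7 CPM in the control-GFP libraries. Each Id2-GFP library was below its own control, but the groups overlapped. The difference was −0.76 (95% interval −1.97 to 0.44, adjusted p = 0.998, limma), and the interval was −1.27 to −0.26 with the block (adjusted p = 0.39). Without the control-GFP library of replicate number 3 the difference was −0.62. Without pair 3, which holds the control-GFP library that stood apart, the block gave −1.04 with an adjusted p of 1.4e-08. That fit left 1 residual degree of freedom and gave every gene the variance shared by all genes, and it called 468 genes, so this call rests on 2 pairs.

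Csf1r had 97.6, 223 and 129.9 CPM in Id2-GFP libraries, against 159, 239 and 242 CPM in control-GFP libraries. The groups overlapped, and the difference of −0.57 had a 95% interval of −1.32 to 0.19 (with the block −1.04 to −0.096, adjusted p = 0.63, limma). Without the control-GFP library of replicate number 3 it was −0.46.

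Il6st had 20.9, 40.3 and 30.9 CPM in Id2-GFP libraries, against 20.4, 28.6 and 9.08 CPM in control-GFP libraries. The difference of 0.76 (95% interval −0.26 to 1.79) was 0.030, 0.49 and 1.76 in the 3 pairs. With the block its interval was 0.086 to 1.44 (adjusted p = 0.68, limma). Without the control-GFP library of replicate number 3 it came to 0.29. Il6ra had 45.5, 49.0 and 45.7 CPM in Id2-GFP libraries, against 41.4, 41.7 and 24.9 CPM in control-GFP libraries. It was the receptor whose groups did not overlap, as in 6.95% of all genes (3.18% higher in Id2-GFP), and its difference of 0.42 (95% interval −0.13 to 0.96) was 0.17 without that library.

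Flt3 had 38.4, 23.2 and 213.5 CPM in Id2-GFP libraries, against 48.7, 24.8 and 214.9 CPM in control-GFP libraries. The libraries of replicate number 3 were the highest in both groups, by more than 4-fold, and the pairs differed far more than the vectors did. The difference was −0.15, with a 95% interval of −2.44 to 2.14 without the block and −0.55 to 0.26 with it. Without the control-GFP library of replicate number 3, which leaves its Id2-GFP partner in the fit, the difference turned to 0.73. The interval with the block thus left out a fall of the size seen after doxycycline, whose 95% interval with the block was −4.00 to −3.47. The tables were scaled apart, and the difference between these changes was not tested.

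The other 5 receptors differed by −0.20 to 0.20 between the vectors, and all of their groups overlapped. Csf3r had 54.0, 92.3 and 47.6 CPM in Id2-GFP libraries and 63.6, 73.8 and 33.1 CPM in control-GFP libraries, with a difference of 0.20 that was −0.15 without the control-GFP library of replicate number 3. Csf2ra had 301, 500.03 and 178 CPM in Id2-GFP libraries and 329, 368 and 164 CPM in control-GFP libraries (0.14, 95% interval −0.87 to 1.16), and its difference was −0.22 without that library. Csf2rb and Csf2rb2 differed by −0.18 (−0.94 to 0.58) and −0.20 (−1.10 to 0.70), and Il3ra by −0.12 (−0.70 to 0.46). Without that library these differences were −0.50 for Csf2rb, −0.59 for Csf2rb2 and −0.073 for Il3ra, and no receptor passed the test. Its Id2-GFP partner stayed in that fit, so these values also hold differences between pairs. Within pairs 1, 2 and 3 the changes were −0.22, −0.31 and −0.015 for Csf2rb and −0.47, −0.13 and 0.0075 for Csf2rb2. They were −0.13, 0.44 and 0.12 for Csf2ra, −0.23, 0.32 and 0.52 for Csf3r, and −0.090, 0.35 and −0.63 for Il3ra. The 4 chain ratios gave exact permutation p-values of 0.2 to 1, where 3 against 3 libraries cannot go below 0.1. These p-values were 0.2 to 0.8 without the control-GFP library of replicate number 3. None of 6 measured ligands, 21 other cytokine receptor chains, 11 other receptor tyrosine kinases, 33 kinases and adaptors or 27 negative regulators was called, and none of 11 monocyte and macrophage, 10 neutrophil or 10 stem and progenitor markers. The same held without the control-GFP library of replicate number 3. With the block 2 markers were called, beside 35 of all 14563 genes (0.24%). They were the monocyte marker Cx3cr1, at −1.38 (adjusted p = 0.036, limma), and the neutrophil marker Mmp8, at 1.96 (adjusted p = 0.010, limma). The median differences of their lists were 0.23 and 0.31, so Cx3cr1 went against the median of its list.

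**Figure D5:**
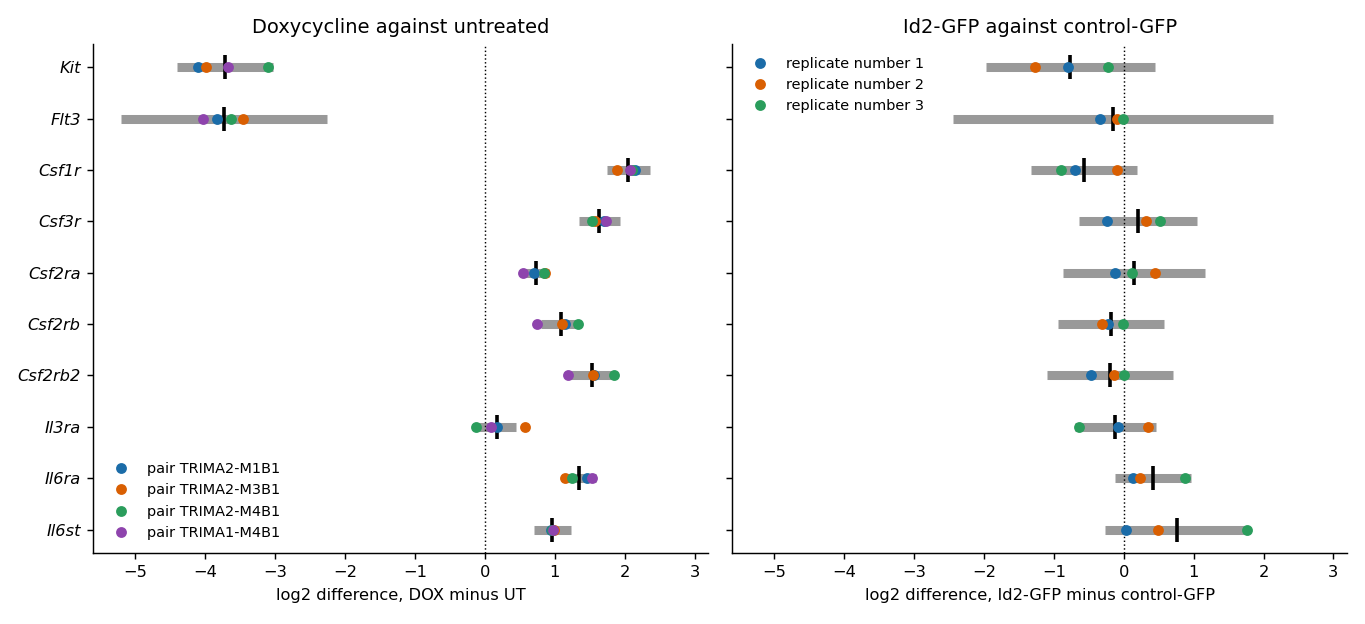
Log2 differences of the 10 receptors, DOX minus UT (left panel, 4 pairs) and Id2-GFP minus control-GFP (right panel, 3 pairs). Points are pairs, black marks are the mean differences, and grey bars are their 95% intervals from limma without a block. In the left panel the intervals of 9 receptors lie away from 0 and that of Il3ra includes it, and in the right panel all 10 include it.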

How the data were processed

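Gene expression of the 14 libraries was deposited as a table per experiment. Per the submitters' processing notes, CASAVA 1.8.2, TopHat2, HTSeq, limma and the build mm10 were used. Per the labels, 400 ng of total RNA went into each TruSeq V2 library. The values deposited by the authors are log2 CPM of reads plus 0.5 over a scaled library size: 100% of values gave whole reads within 0.01 read. The doxycycline table held 13419 entries, of which 13 were repeats and 255 had no symbol, and 13361 of its 13406 genes passed 1 CPM in 2 or more libraries. All 10 receptors did so in each group.

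Each table was fitted apart with limma 3.58.1 in R 4.3.3 on the deposited log2 values (eBayes with a trend, two-sided, Benjamini-Hochberg over all genes, threshold 0.05). In data simulated on these libraries, 98% of 2-fold changed genes were recovered for doxycycline and 90% for Id2. The simulation gave every gene the same dispersion and had no pair effects. The receptors' median SD of log2 CPM was 0.52 in Id2-GFP and 0.59 in control-GFP libraries, against 0.24 and 0.35 for all genes. The simulated shares therefore do not give the power for the receptors in the Id2 comparison. Titles share pair labels and replicate numbers between groups. Over genes with a mean log2 value over 3, deviations of same-label libraries from their group means correlated at 0.386 to 0.531 between DOX and UT and at 0.467 to 0.496 between Id2-GFP and control-GFP, so the labels pair the libraries. The fit without the block is the main one. The receptors, ratios and gene lists were chosen with earlier results of these data known. Named genes are the receptors, up to 4 called genes with the smallest p of each list, the 3 genes most like Kit, Flt3, Csf1r and Csf3r, and the targeted genes; some of these are not reported here. Flt3l, Clcf1, Elane, Cx3cr1, Mmp8, Cpa3, Mcpt8, Pecam1 and the genes without a row were named after the values were seen. Replicates differed by more than counting noise. Positions and lengths are from GENCODE M21, and promoters from RefSeq. Python 3.11.15, scipy 1.17.1 and Biopython 1.88 were used.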

Additional observations from a re-analysis of the deposited data

Results flagged for a closer look

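Among the groups of 4 libraries, 28 sets of values (10 receptors and 4 ratios in each of DOX and UT) were searched for a library far from the others, which chance alone gives in about 1 of 20 groups, and 3 were found. Kit in the DOX library of pair TRIMA2-M4B1 was at 2.97 log2 CPM, with the other 3 DOX libraries at 1.55 to 1.77. The title of that library lacks an ending that the other 3 DOX titles share, and its meaning is not given. Without it Kit fell by 4.05 (adjusted p = 2.0e-06, limma), so the call does not rest on it. Il6st in pair TRIMA2-M3B1 was high in both groups, at 5.94 log2 CPM in DOX with the others at 5.52 to 5.56, and at 4.96 log2 CPM in UT with the others at 4.58 to 4.59. The change of Il6st was 0.99 within that pair and 0.94 to 0.97 within the others.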

How the results depend on the processing

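After doxycycline, the 9 receptor calls kept their direction and passed under all alternatives run, except that Flt3 has no value where only genes with a mean log2 value over 3 are kept. Il3ra was −0.062 with library totals. The count of called genes ranged from 7563 to 8616 when a library or pair was left out, and was 9326 with the replicate block. The block changed no other call of a receptor or targeted gene. For the exact tests of 3 doxycycline ratios, sign flips within 4 pairs cannot go below 0.125, which is the p they gave. In the Id2 comparison, the 2 called genes became 35 with the replicate block, 1 with a mean log2 value over 1 or over 3, and 0 to 468 when a library or pair was left out. The fits with the block without a pair were chosen after seeing the data.

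Differences of receptors in the Id2 comparison changed sign when libraries or pairs were left out, with ranges of −1.09 to 0.73 for Flt3, −0.23 to 0.52 for Csf2ra, −0.50 to 0.053 for Csf2rb, −0.59 to 0.083 for Csf2rb2, −0.15 to 0.43 for Csf3r and −0.38 to 0.13 for Il3ra, while Kit, Csf1r, Il6ra and Il6st kept theirs (−1.18 to −0.18, −0.90 to −0.30, 0.17 to 0.56 and 0.26 to 1.13). Kmt2a ranged from −0.47 to 0.72, Mllt3 from −0.65 to 0.14 and Nras from −0.26 to 0.27. Flt3, Csf2rb and Mllt3 were lower in Id2-GFP in each pair, so leaving out a pair could not turn their sign. Their sign turned only where a single library was left out and its partner stayed in the fit. Ratio differences in the Id2 comparison ranged from −0.056 to 0.11 for Csf2rb to Csf2rb2 and −0.14 to 0.43 for Il3ra to Csf2rb. Nras after doxycycline was −0.030 with quantile normalization. The cause of the other changes of sign was not tested. Among the 10 receptors, read counts were lowest for Flt3 after doxycycline, at 14 reads in 1 library.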
